A study of Mus musculus with 18 samples.

Results

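Prostates of TRAMP mice lacking Elac2 in the prostate epithelium (KO-TRAMP) were compared between 30 and 10 weeks of age. The samples were chosen by their labelled genotype and age, which gave 3 at each age and 6 of the 18 samples of the series. Total RNA had been taken from the ventral and lateral lobes of male mice of the strain labelled C56NL/6N after the seminal vesicles and fat were dissected away. The 10-week and 30-week prostates came from different mice. The KO-TRAMP mice were homozygous for an Elac2 allele whose exon 8 is removed by a Cre recombinase driven by the probasin (Pb) promoter, so that the gene was deleted in prostate epithelium and kept in every other cell of the lobes. All mice described here, the WT-TRAMP mice used for comparison included, carried the TRAMP transgene in the hemizygous state (TRAMP +/-), in which the probasin promoter drives the SV40 large T and small t antigens. The 3 WT-TRAMP prostates at 10 weeks and the 3 at 30 weeks had the intact Elac2 gene. Libraries are named by the number in the column header, 7, 8 and 9 for KO-TRAMP at 10 weeks and 16, 17 and 18 for KO-TRAMP at 30 weeks.

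ELAC2 is the endonuclease that trims the 3' ends of tRNA precursors in the nucleus and in mitochondria, where the same cut releases most mitochondrial mRNAs. The T antigens bind and inactivate the retinoblastoma and p53 proteins, so that the epithelium of TRAMP mice passes from hyperplasia to adenocarcinoma with age, and some tumours take on a neuroendocrine form that no longer depends on androgens. The collagens, glycoproteins and cross-linking enzymes around the epithelium are made mainly by fibroblasts and smooth muscle and are commonly remodelled as prostate tumours grow.

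The 6 libraries held between 10420074 and 14830104 reads assigned to genes. Each KO-TRAMP count of a gene below is normalized, the recovered reads divided by a median-of-ratios factor over the 6 libraries. Summed counts of a list, and all WT-TRAMP counts, use factors over 12 libraries instead, so sums and single counts are on slightly different scales. Changes are differences of log2(count + 1) tested with limma over the 16640 genes with a mean of at least 10. The luminal keratin gene Krt8 was between 3999 and 9352 in all 6 libraries, so a marker of luminal epithelium was present throughout. Seminal vesicle transcripts took 1.63% of the reads of library 9, 0.267% of library 16, 0.107% of library 18 and 0.0522% of library 8. They took 0.000906% and 0.000701% of libraries 7 and 17, so that this carry-over did not follow age in KO-TRAMP. In WT-TRAMP the shares were 0.000183%, 0.000213% and 0.000459% at 10 weeks and 4.35%, 0.000106% and 1.90% at 30 weeks.

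Library 16 stood apart from the other 30-week libraries. The median absolute log2 difference over genes was 0.594 between libraries 16 and 17 and 0.398 between 16 and 18, against 0.284 between 17 and 18. Library 16 lay 0.254 to 0.288 from the 10-week libraries, which differed among themselves by 0.201 to 0.284. In libraries 17 and 18, 849 genes were at least 2-fold above the 10-week range while library 16 lay inside it. The same count with library 17 or library 18 as the odd one was 19 and 2 genes. The main results that rest on library 16 are therefore given with and without it.

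Elac2 itself (chr11:64979038-65002069 on GRCm38, plus strand) was counted over the whole gene, so that the loss of 1 exon in 1 cell type need not remove its reads. Its normalized counts were 337, 296 and 286 at 10 weeks and 257, 274 and 256 at 30 weeks, from 240 to 367 reads a library. The 30-week values were all below the 10-week ones, and the log2 difference was -0.22 (SE 0.13). It did not pass the test (limma adjusted p = 0.365), and an exact two-sided permutation test gave p = 0.1, the smallest that 20 regroupings of the libraries allow. In WT-TRAMP the log2 difference between the ages was -0.25.

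Across all genes, 52 of 16640 (0.312%) passed the test at an adjusted p of 0.05, of which 44 (0.264%) were higher and 8 (0.0481%) lower at 30 weeks. At an unadjusted p under 0.05 there were 3148 genes (18.9%), 1726 (10.4%) higher and 1422 (8.55%) lower. The median log2 change of all genes was 0.02. Large increases outnumbered large decreases, with 1067 genes raised by at least 2 on the log2 scale against 60 lowered by as much. Of the 16640 genes, 1013 had a 10-week mean under 10 and passed the filter through the older libraries alone. Their higher mean at 30 weeks was thus fixed in advance, and how many of the 1067 were among them was not counted. In the 849 genes given above, library 16 lay inside the 10-week range. In 4061 genes (24.4%) no 30-week library overlapped the 10-week ones, 1972 higher (11.9%) and 2089 lower (12.6%). The count of calls depended on which libraries entered. Without library 16 it was 5451 of 16699 (32.6%), 3225 (19.3%) higher and 2226 (13.3%) lower, and all 52 genes were among them. It was 23 without library 17 and 0 without library 7, 8, 9 or 18, where 1778, 2101, 1977 and 1431 genes had an unadjusted p under 0.05 in limma. DESeq2 on the recovered reads called 1718 genes (10.3%), 1281 (7.7%) higher and 437 (2.63%) lower. All 52 genes kept their direction in each of these fits. In bulk tissue, more transcript of a gene from each cell and more cells of the type that makes it cannot be told apart.

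Among the genes that passed the test with all 6 libraries were genes of the extracellular matrix, of complement and macrophages, and of the secretory epithelium. Of the 44 raised genes, 11 were in the 3 lists of matrix genes, which had 16, 22 and 21 tested members (0.264% of all genes were raised). Thbs2, encoding the matricellular protein thrombospondin 2 (chr17:14665500-14694235), stood at 24.1, 24.3 and 20.6 at 10 weeks and at 250.3, 662 and 504 at 30 weeks. All 30-week values lay far above the 10-week ones, the mean going from 23 ± 2.06 to 472 ± 208 (SD, n = 3 each). The rise was 4.19 on the log2 scale (SE 0.37, limma adjusted p = 0.0235).

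Tenascin C, a glycoprotein laid down in remodelling stroma, is encoded by Tnc (chr4:63959785-64047015). Its counts were 56.3, 90.5 and 77.3 at 10 weeks and 1067, 453 and 652 at 30 weeks, so that library 16 held the highest value (log2 change 3.20, SE 0.34, limma adjusted p = 0.0267). Thbs1, the other thrombospondin gene raised here (chr2:118111876-118127133), was at 322, 468 and 459 and then at 2117, 5592 and 4318, with library 16 the lowest of the older libraries (log2 change 3.17, SE 0.37, limma adjusted p = 0.0351). The groups were well apart for both genes, although the order of the 3 older libraries differed. Fn1, encoding fibronectin (chr1:71585520-71653200), changed more evenly than Thbs2, Tnc and Thbs1. Its counts of 934, 1180.4 and 1048 became 3337, 3608 and 3491, a 3.30-fold ratio of means (log2 change 1.73, SE 0.12, limma adjusted p = 0.0212).

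**Figure D1:**
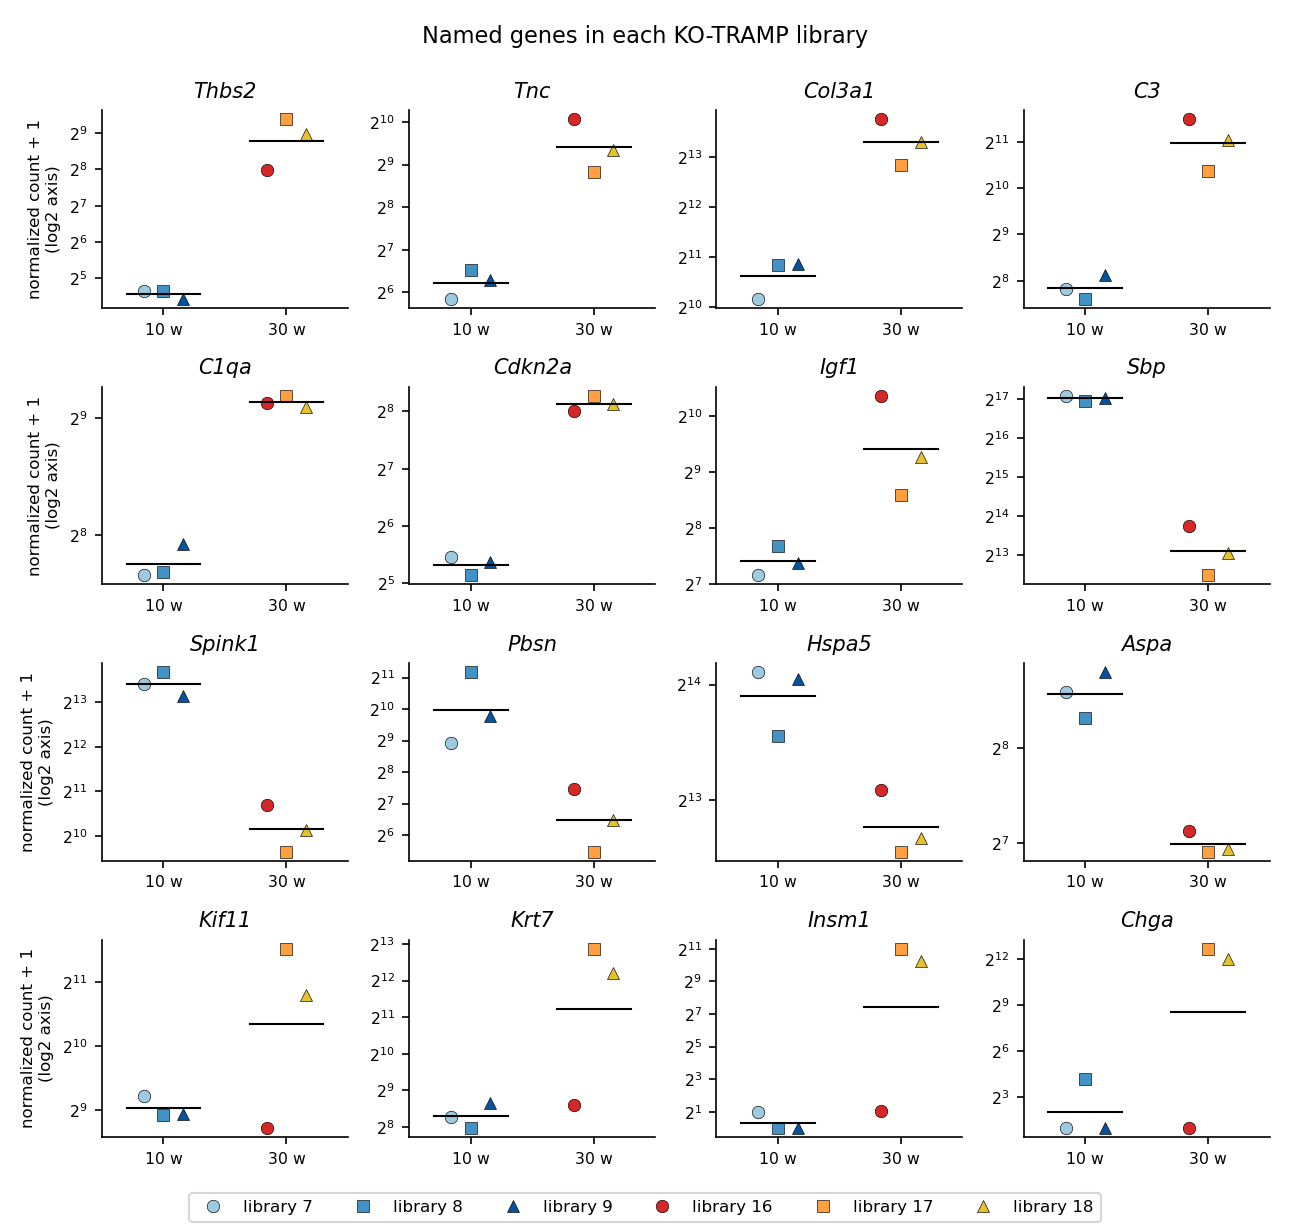
Normalized counts plus 1 (log2 axis, a range of its own in each panel) of 16 genes in the 6 KO-TRAMP libraries, 10-week libraries on the left in blue and 30-week libraries on the right, with horizontal bars at the mean of the log2 values of each age. In the upper 2 rows and for Spink1, Pbsn, Hspa5 and Aspa the ages do not overlap, whereas for Kif11, Krt7, Insm1 and Chga library 16 sits with the 10-week libraries and libraries 17 and 18 are far above them.

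Among the 22 matricellular, proteoglycan and elastic fibre genes, 7 rose, namely Tnc, Thbs1, Thbs2, Fn1, Bgn, Fbn1 and Fbln2, and none fell. Of the 22, 1 had a 10-week mean under 10 and passed the filter through the older libraries alone. The 30-week libraries lay wholly above the 10-week ones in 16 of the 22 and wholly below in 1, against 11.9% and 12.6% of all genes, and the list median was 1.75 on the log2 scale against 0.02 over all genes. Fbn1, the gene of fibrillin 1 (chr2:125300594-125507993), stood at 242, 351 and 352 at 10 weeks and at 1399, 1210.2 and 1209.5 at 30 weeks (log2 change 2.03, SE 0.18, limma adjusted p = 0.0235). Sparc, a collagen-binding protein, went from 906, 1415 and 1451 to 3547, 2641 and 2944 without overlap, but its log2 change of 1.30 missed the threshold (limma adjusted p = 0.0794).

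Of the 16 collagen genes listed and tested, 3 rose and none fell at the adjusted threshold. Col3a1, a fibrillar collagen of loose stroma (chr1:45311538-45349706), was at 1149.9, 1838 and 1861 at 10 weeks and at 13832, 7372 and 10098 at 30 weeks. Its mean rose 6.46-fold (log2 change 2.68, SE 0.29, limma adjusted p = 0.0267), again with the highest count in library 16. Col4a2, which makes a chain of basement membrane collagen (chr8:11312805-11449287), was at 359.9, 470.0 and 391 and then at 1058, 1081 and 1087 (log2 change 1.41, SE 0.14, limma adjusted p = 0.0235). Col12a1, whose product coats collagen fibrils, had a log2 change of 1.20 (limma adjusted p = 0.0388). Col1a1, the main fibrillar collagen, stood at 539.8, 992 and 760.0 against 2848, 1729 and 2153 and missed the threshold (log2 change 1.57, limma adjusted p = 0.0822). The older libraries were wholly above the younger ones in 11 collagen genes and wholly below in 1, Col6a3, against 11.9% and 12.6% of all genes. The list median was 1.22 on the log2 scale. Col6a3 was singled out after its values were seen. Col11a1, a minor fibrillar collagen outside the list of 16, was named because its change was among the largest (chr3:114030540-114220718). It rose from 25.1, 27.6 and 18.6 to 123, 264 and 293 (log2 change 3.12, SE 0.38, limma adjusted p = 0.0388).

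Enzymes that cross-link and cut the matrix also stood higher. Of 21 tested, 15 had older libraries wholly above the younger ones and none wholly below, against 11.9% and 12.6% of all genes. The median change was 1.57 on the log2 scale, and 1 gene passed the test. That gene was Mmp19, a matrix metalloproteinase (chr10:128790910-128800824), which had counts of 6.03, 7.72 and 6.19 at 10 weeks and 64.7, 66.4 and 78.0 at 30 weeks (log2 change 3.21, SE 0.34, limma adjusted p = 0.0267). Of the 21, 3 had a 10-week mean under 10, Mmp19 (6.65) among them, and passed the filter through the older libraries alone. Lox, the gene of lysyl oxidase, was at 159, 175 and 183 and then at 1619.7, 438 and 829. Its groups did not overlap, but the wide spread at 30 weeks left it short of the threshold (log2 change 2.28, SE 0.44, limma adjusted p = 0.105). Without library 16, 18 matricellular genes, 14 matrix enzyme genes and 10 collagen genes were called higher, against 19.3% of all genes, and 1 matricellular and 1 collagen gene lower, against 13.3%. Other raised genes of the matrix and its surroundings were Ccdc80 and Tgfbi, both encoding secreted proteins that bind cells or matrix. Ccdc80 went from 38.2, 64.0 and 66.0 to 644, 384 and 533 (log2 change 3.20, SE 0.29, limma adjusted p = 0.0235), and Tgfbi from 34.2, 65.1 and 72.2 to 519, 374 and 413 (log2 change 2.96, SE 0.31, limma adjusted p = 0.0267). The older values exceeded the younger ones in every library for both genes.

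Markers of blood vessels and smooth muscle were counted beside these genes. The 12 endothelial markers had a summed count of 282 to 634 at 10 weeks and 1026 to 3791 at 30 weeks, and 10 of the 12 had groups without overlap, all higher (11.9% of all genes were). None passed the adjusted threshold. Of the 12, 1 had a 10-week mean under 10 and passed the filter through the older libraries alone. Pecam1, an adhesion protein of endothelial cells, stood at 51.3, 82.7 and 90.8 and then at 163, 329.6 and 238 (log2 change 1.67, limma adjusted p = 0.112). The 10 smooth muscle markers summed to between 10183 and 17073 at 10 weeks and to 8866, 42148 and 29348 in libraries 16, 17 and 18, so that library 16 was below the younger range. None of the 10 passed the test or had groups without overlap. No marker of either list was at 0 reads in any of the 6 libraries. What part these cells had in the matrix genes was not tested. The smooth muscle sum was lowest in library 16. Among the matrix genes with counts given above, Tnc, Fbn1, Sparc, Col3a1, Col1a1, Lox, Ccdc80 and Tgfbi were highest in that library. Thbs1, Thbs2, Fn1, Col4a2, Col11a1 and Mmp19 were lower in library 16 than in the other older libraries. Without library 16, 8 of 12 endothelial and 9 of 10 smooth muscle markers were called higher (19.3% of all genes were), and the smooth muscle median went from 0.65 to 1.27.

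Of 12 macrophage markers, 2 rose, and a complement gene outside that list was among the largest increases. C3, the central complement protein (chr17:57203970-57228136), had counts of 225, 194 and 278 at 10 weeks and 2855, 1329 and 2097 at 30 weeks (log2 change 3.11, SE 0.29, limma adjusted p = 0.0235). C1qa, a subunit of the first complement component made by macrophages (chr4:136895917-136898803), was at 200.03, 204 and 241 and then at 561, 585 and 547 (log2 change 1.39, SE 0.13, limma adjusted p = 0.0235). Lyz2, lysozyme of myeloid cells (chr10:117277331-117282321), rose from 362, 266 and 434 to 1464, 1203 and 1259 (log2 change 1.91, SE 0.20, limma adjusted p = 0.0267). The 2 ages were apart in all 3 genes. Lyz2 shares 32.8% of its 31-base words with Lyz1, so reads may be split between them. C1qa and Lyz2 were the macrophage markers that rose, 10 of the 12 had groups without overlap, all higher (11.9% of all genes were), and the marker sum was 1392 to 2061 at 10 weeks and 3920 to 4982 at 30 weeks. No macrophage marker was at 0 reads. The list median of 1.36 on the log2 scale became 1.37 without library 16.

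MHC class II genes, which present antigen on macrophages, dendritic and B cells, stood higher in 7 of 8 members without overlap (11.9% of all genes did), although none passed the adjusted threshold. H2-Aa, an alpha chain, was at 411, 420.3 and 576 and then at 1237, 787 and 946 (log2 change 1.07, limma adjusted p = 0.113). Class I genes lay on the other side of 0. None of their 10 members passed the test, 10 of 10 had log2 changes below 0, and the median was -0.42. Without library 16 it was -0.74 and 3 of the 10 were called lower, against 13.3% of all genes. B2m, the light chain of class I, was at 16934, 13093 and 20756 at 10 weeks and at 18811, 7952 and 11732 at 30 weeks, so that the ages overlapped. Of 14 T cell markers, 8 were measured above the filter, 1 of them with a 10-week mean under 10, and their median log2 change was 0.03. The summed count over all 14 was 186 to 232 at 10 weeks and 261 to 327 at 30 weeks. Only 3 of 10 B and plasma cell markers passed the filter, with a summed count over all 10 of 21.1 to 24.6 and then 72.4 to 229. The filter lets such genes in through the age in which they are high, so this says little of the list. Socs3, a feedback inhibitor of cytokine signalling (chr11:117966079-117970047), rose from 21.1, 16.5 and 44.3 to 212, 289 and 267 (log2 change 3.29, SE 0.38, limma adjusted p = 0.0359).

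None of the 10 genes of the insulin-like growth factor axis passed the test. Igf1, a growth factor made by prostate stroma, was at 142, 205 and 165 at 10 weeks and at 1312, 383 and 613 at 30 weeks. The groups did not overlap, library 16 was the highest, and the log2 change of 2.00 (SE 0.44) missed the threshold (limma adjusted p = 0.126). Without library 16, left out with its values known, the log2 change was 1.51 (limma adjusted p = 0.00755). Of the 10 genes of this axis, 6 had groups without overlap, all higher (11.9% of all genes were), among them the binding proteins Igfbp4 (95.5, 127 and 185, then 1217, 523 and 659) and Igfbp7 (184, 231 and 352, then 573, 834 and 686). Igfbp4 had a log2 change of 2.51 (limma adjusted p = 0.0596) and Igfbp7 one of 1.48 (limma adjusted p = 0.0885).

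Cdkn2a encodes the inhibitors that act upstream of the retinoblastoma and p53 proteins (chr4:89274471-89294653). Its counts were 43.2, 34.2 and 40.2 at 10 weeks and 255, 308 and 279.9 at 30 weeks, with means of 39.2 ± 4.60 and 281 ± 26.7 (SD, n = 3 each). Every older library was far above every younger one, and the rise of 2.81 on the log2 scale (SE 0.19, limma adjusted p = 0.0212) was the call with the smallest unadjusted p among the 52. It was the single call among 21 genes of the retinoblastoma and E2F group, whose median was 0.10. Of 12 p53 targets, none passed the adjusted threshold and 5 were higher without overlap, against 11.9% of all genes, while 1 was lower. Cdkn1a, which arrests the cycle downstream of p53, was at 31.2, 71.7 and 45.4 and then at 99.7, 163 and 149.6 (log2 change 1.51, limma adjusted p = 0.149). Trp53inp1, another p53 target, went from 352, 436 and 521 to 1141, 954 and 953 (log2 change 1.23, limma adjusted p = 0.0596). Basp1 and Slc16a1 were also among the largest increases. Slc16a1, a lactate transporter, rose from 23.1, 29.8 and 30.9 to 167, 516 and 359 (log2 change 3.45, SE 0.42, limma adjusted p = 0.0388), and Basp1, a membrane-bound signalling protein, from 23.1, 35.3 and 34.0 to 215, 582 and 419 (log2 change 3.58, SE 0.39, limma adjusted p = 0.0291). For both, library 16 was the lowest of the older libraries and still above all the younger ones.

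**Figure D2:**
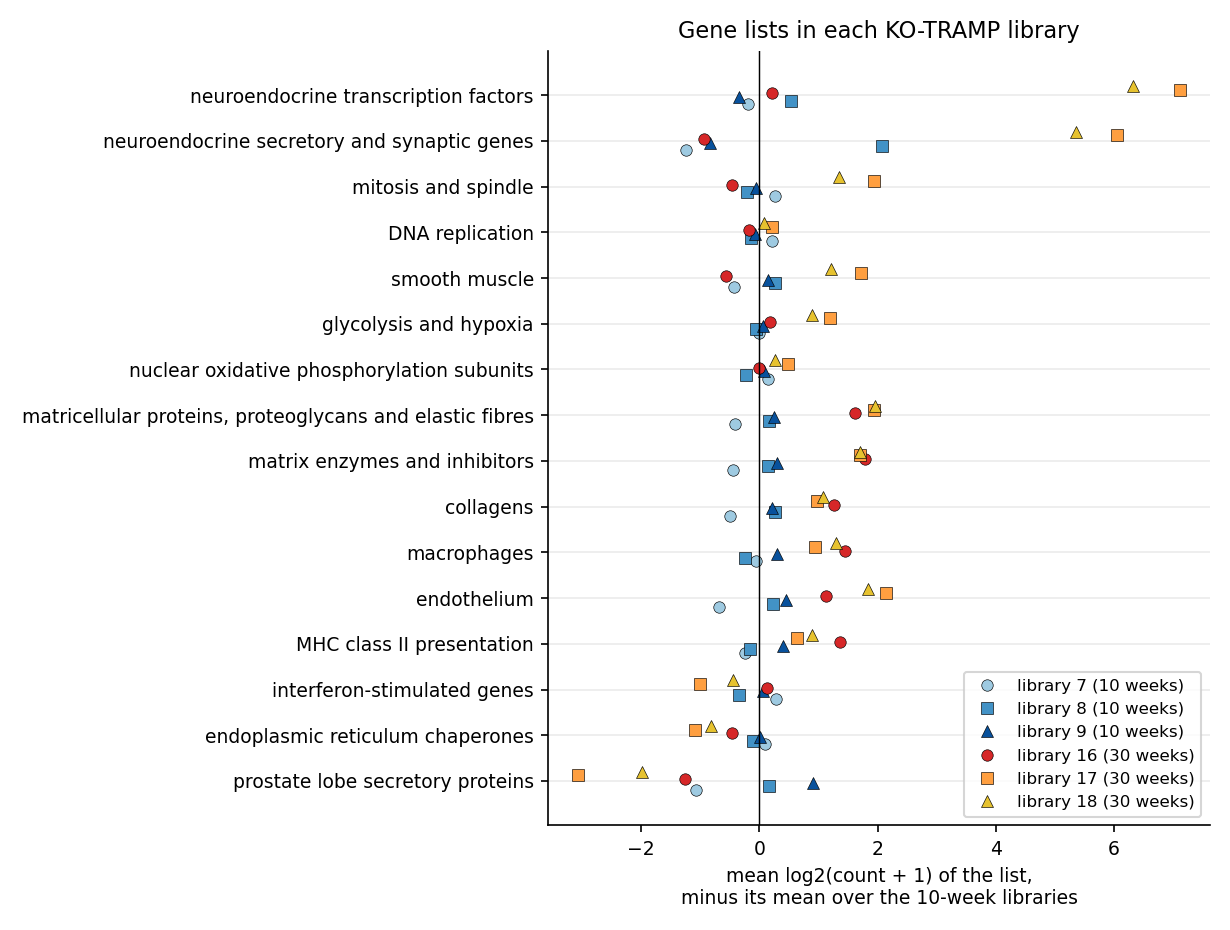
Mean log2(count + 1) of 16 gene lists in each KO-TRAMP library, minus the mean of the list over the 3 10-week libraries (x axis, log2 units, 0 marked by a line); each symbol is 1 library. The matrix, macrophage, endothelial and MHC class II lists stand to the right in all 3 30-week libraries, and in the neuroendocrine, mitosis and smooth muscle lists libraries 17 and 18 lie to the right of the other 4.

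The products of the secretory epithelium went the other way. Sbp, the spermine-binding protein of the ventral lobe (chr17:23941672-23945607), held 138145, 126082 and 132442 counts at 10 weeks and 13719, 5749 and 8574 at 30 weeks. No 30-week value came near the younger ones, and the mean fell from 132223 ± 6034 to 9347 ± 4041 (SD, n = 3 each), a log2 change of -3.91 (SE 0.31, limma adjusted p = 0.0235). Spink1, a trypsin inhibitor of the secretion, was at 10954, 13097 and 9036 and then at 1654, 801 and 1133 (log2 change -3.25, SE 0.28, limma adjusted p = 0.0235). Sbp shares 26.6% of its 31-base words with its neighbour Sbpl, which had counts of 30.2, 45.2 and 34.0 and then 4.24, 2.24 and 2.14. Pbsn, the mouse gene of probasin (chrX:77837901-77853623), was at 481, 2309 and 887 at 10 weeks and at 175, 43.2 and 88.7 at 30 weeks. Its groups did not overlap, but the spread at 10 weeks was wide and the log2 change of -3.49 (SE 0.69) missed the threshold (limma adjusted p = 0.111). Of the 11 lobe secretory genes tested, 2 fell, 7 were lower without overlap (12.6% of all genes were), none was higher without overlap, and the median was -3.16. The summed share of reads taken by the 12 listed genes went from 1.35% to 1.48% at 10 weeks to 0.529%, 0.168% and 0.314% in libraries 16, 17 and 18. All 3 older libraries were below the younger ones. Sbp made up most of the 10-week sums. In WT-TRAMP the share went from 2.74%, 3.13% and 2.30% at 10 weeks to 0.422%, 0.501% and 0.459% at 30 weeks. The summed count of the luminal keratins and junction genes was 39008 to 43019 at 10 weeks and 40608 to 42530.4 at 30 weeks, but its members differed in direction. Krt8 and Krt7 were highest in libraries 17 and 18, 10 of the 14 members had log2 changes below 0, and without library 16 there were 6 called lower and 2 higher, against 13.3% and 19.3% of all genes. Cldn3, a tight junction protein, was at 949.9, 872 and 953 and then at 581, 468 and 490.4 (log2 change -0.85, limma adjusted p = 0.0596).

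Genes that fold and export secreted proteins from the endoplasmic reticulum were lower with them. All 18 chaperone and quality control genes had log2 changes below 0, and in 16 the older libraries lay wholly below the younger ones, against 12.6% of all genes. The list median was -0.86, and -1.02 without library 16. Hspa5, the main chaperone of that compartment (chr2:34771970-34777547), was at 17658, 12057 and 16958 at 10 weeks and at 8670.0, 5989.8 and 6501 at 30 weeks (log2 change -1.14, SE 0.21, limma adjusted p = 0.0949). None of the 18 passed the adjusted threshold with all libraries, and 15 passed it without library 16, all lower, against 13.3% of all genes. Derl3, which returns misfolded proteins for breakdown (chr10:75893413-75895941), fell with all libraries, from 757, 747 and 746 to 275, 159.6 and 183 (log2 change -1.90, SE 0.21, limma adjusted p = 0.0320). ATF4 target genes, a neighbouring branch of the stress response, had a median of -0.12 and no call. The other named genes that fell were H2-Q10 and Aspa. H2-Q10, a class I gene outside the list above (chr17:35470089-35474563), went from 359, 243 and 288 to 42.4, 25.4 and 29.9 (log2 change -3.16, SE 0.27, limma adjusted p = 0.0235) and shares 21.9% of its 31-base words with H2-Q7. Aspa, an enzyme that breaks down N-acetylaspartate, went from 385, 318 and 444 to 139, 119 and 122 (log2 change -1.58, SE 0.18, limma adjusted p = 0.0320). Neither gene overlapped between the ages.

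Neuroendocrine genes separated the older libraries from each other. Chga, the chromogranin A of secretory granules (chr12:102554969-102565028), was at 1.01, 17.7 and 1.03 at 10 weeks, at 1.06 in library 16, and at 6574 and 4098 in libraries 17 and 18. Prox1, a lineage factor, was at 8.04, 18.8 and 3.09 and then at 19.1, 2139 and 1311, and Insm1, a zinc finger factor of neuroendocrine cells (chr2:146221921-146225020), at 1.01, 0 and 0 and then at 1.06, 2056 and 1223. Library 16 was thus at or near the younger level of each gene, and the other older libraries were far higher. Among the younger libraries, library 8 had the most reads of the 20 secretory and synaptic genes, 0.0163% against 0.00504% and 0.00643% in libraries 7 and 9. With all 6 libraries none of the 11 transcription factors or 19 secretory and synaptic genes passed the test. The limma adjusted p was 0.293 for Chga and 0.211 for Prox1.

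Without library 16, 11 of 11 neuroendocrine transcription factors and 17 of 19 secretory genes were called higher, against 19.3% of all genes, with median log2 changes of 5.69 and 5.79 in place of 3.43 and 3.48. With genes at 0 in all younger libraries set to a floor of 3 reads, the medians with all libraries were 3.43 and 3.35. Of the tested members, 8 of the 11 factors and 5 of the 19 secretory genes had a 10-week mean under 10 and passed the filter through the older libraries alone, so these counts and medians describe the values and support nothing. These calls compare 2 libraries with 3, and the choice of the 2 followed their values. The reads of the 15 listed factors made up 0.00169% to 0.00186% of the 10-week libraries, 0.00205% of library 16, 0.132% of library 17 and 0.0801% of library 18. Among the WT-TRAMP libraries at 30 weeks, Insm1 was at 195, 0 and 108.

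Genes of mitosis were split between the older libraries in the same way. Kif11, the motor that opens the spindle (chr19:37376403-37421859), was at 595, 482 and 488 at 10 weeks and at 418, 2951 and 1788 at 30 weeks. Ube2c, which marks mitotic cyclins for breakdown (chr2:164769898-164778822), was at 108, 72.8 and 99 and then at 80.6, 584 and 357, and Nuf2, a kinetochore protein, at 138, 94.9 and 105 and then at 92.3, 702 and 464. In all 3 genes library 16 was inside or below the younger range and libraries 17 and 18 were well above it. No mitosis gene passed the test with all libraries, although 24 of 24 had log2 changes above 0 (51.4% of all genes did) with a median of 0.90. Without library 16, 24 of 24 were called higher, against 19.3% of all genes, with a median of 1.56. Here too library 16 was left out with its values known.

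DNA replication genes, which are switched on earlier in the cycle, were less split. None of the 26 passed the test, 14 had log2 changes above 0, and the median was 0.05, or 0.14 without library 16, when 4 were called higher and 2 lower, no larger a share than the 19.3% and 13.3% of all genes. Mcm2, part of the replicative helicase (chr6:88883474-88898780), was at 2379, 1842 and 2039 at 10 weeks and at 1944, 2816 and 2447 at 30 weeks. Cdt1, which loads that helicase (chr8:122568015-122573554), was at 452, 387 and 318 and then at 347, 201 and 266. The ages overlapped for both. Whether the 2 lists differed was not tested.

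The promoters of the 2 lists differ in the letters that cell cycle factors read. E2F factors switch on replication genes at G1 to S and are freed from retinoblastoma protein by the T antigen, whereas the DREAM and MuvB complexes act on late genes through CHR elements, often beside CCAAT boxes bound by NF-Y. Promoters of 2 mitosis genes, Cdk1 (chr10:69352863-69353162, minus strand) and Ube2c (chr2:164769679-164769978, plus strand), and of 2 replication genes, Mcm2 (chr6:88898731-88899030, minus strand) and Cdt1 (chr8:122567765-122568064, plus strand), are shown. They were chosen because the counts of their genes are given above or, for Cdk1, below. Each is the RefSeq GRCm38.p6 sequence from 250 bases before the start to 50 after it, 5' to 3' on the strand of the gene, and capitals mark the letters searched for.
Cdk1: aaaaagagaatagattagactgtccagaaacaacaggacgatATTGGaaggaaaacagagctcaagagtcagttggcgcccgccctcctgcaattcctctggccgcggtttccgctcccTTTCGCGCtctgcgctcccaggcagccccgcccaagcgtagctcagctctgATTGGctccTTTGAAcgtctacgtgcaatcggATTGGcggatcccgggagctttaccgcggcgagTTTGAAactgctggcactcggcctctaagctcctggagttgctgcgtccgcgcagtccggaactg
Ube2c: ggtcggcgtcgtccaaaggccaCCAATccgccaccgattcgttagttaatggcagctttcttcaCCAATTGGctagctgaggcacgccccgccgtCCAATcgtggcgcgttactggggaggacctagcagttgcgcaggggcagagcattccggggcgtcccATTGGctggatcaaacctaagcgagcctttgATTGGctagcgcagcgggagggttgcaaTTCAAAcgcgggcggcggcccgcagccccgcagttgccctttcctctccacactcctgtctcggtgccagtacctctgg
Mcm2: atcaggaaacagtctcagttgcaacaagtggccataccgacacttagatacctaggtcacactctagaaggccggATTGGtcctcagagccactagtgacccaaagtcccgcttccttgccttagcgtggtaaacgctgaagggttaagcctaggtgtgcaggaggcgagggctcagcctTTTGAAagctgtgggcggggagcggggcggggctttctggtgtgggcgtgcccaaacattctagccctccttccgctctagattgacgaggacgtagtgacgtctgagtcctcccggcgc
Cdt1: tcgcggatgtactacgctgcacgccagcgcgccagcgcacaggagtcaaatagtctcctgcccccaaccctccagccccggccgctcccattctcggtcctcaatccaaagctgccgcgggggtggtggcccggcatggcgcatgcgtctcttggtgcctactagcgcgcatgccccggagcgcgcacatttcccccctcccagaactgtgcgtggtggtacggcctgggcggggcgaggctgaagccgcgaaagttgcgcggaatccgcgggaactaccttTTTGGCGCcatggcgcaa

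The search used TTTGAA for CHR, CCAAT for the CCAAT box and TTTCCCGC, TTTGGCGC, TTTCGCGC or TTTGCCGC for E2F, on both strands. CCAAT and its reverse can overlap, as in the Ube2c promoter. Cdk1 held 2 CHR, 3 CCAAT and 1 E2F match, Ube2c 1 CHR and 6 CCAAT matches, Mcm2 1 CHR and 1 CCAAT match, and Cdt1 1 E2F match. Over the lists, CHR letters were in 69.6% of 23 mitosis promoters and 11.5% of 26 replication promoters, against 17.9% of all 32851 promoters. E2F letters were in 4.35%, 38.5% and 2.26% of them in that order, and CCAAT in 78.3%, 57.7% and 37.4%. These matches came from 22 mitosis and 21 replication genes found in the table and describe the letters only. Cdk1, the kinase that starts mitosis, was at 599, 402 and 516 at 10 weeks and at 339, 1533 and 1062 at 30 weeks, with library 16 again the lowest of all 6.

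Krt7, a keratin of simple epithelia (chr15:101411043-101430313), was at 307, 249 and 403 at 10 weeks and at 389 in library 16. In libraries 17 and 18 it was at 7507 and 4761. Its log2 change was 2.94 (SE 1.05, limma adjusted p = 0.235), or 4.24 without library 16, which was left out with its values known. Library 16 was inside the younger range and the other older libraries far above it. Glycolysis and hypoxia genes stood higher in 19 of 21 members, with a median log2 change of 0.73 and no call with all libraries. Of the 21, 11 were higher without overlap and 1 lower (11.9% and 12.6% of all genes). In this list 1 gene had a 10-week mean under 10 and passed the filter through the older libraries alone. Ldha, which makes lactate, was at 2624, 1871 and 2364 at 10 weeks and at 3399.5, 5131 and 4466 at 30 weeks (log2 change 0.92, SE 0.20, limma adjusted p = 0.126). Eno1, the enolase gene, was at 1820.4, 1465 and 1676 and then at 2212, 5412 and 4129 (log2 change 1.16, limma adjusted p = 0.183). In both genes library 16 was above the younger range and well below the other older libraries, and without it 16 of the 21 were called higher and 1 lower, against 19.3% and 13.3% of all genes. Interferon-stimulated genes had a median of -0.51, or -0.85 without library 16, when 7 of 22 were called lower, against 13.3% of all genes. Irf7, an inducer of interferon, was at 1945, 1283 and 1763 and then at 1656, 605 and 962, so that the ages overlapped.

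ELAC2 acts in mitochondria, and the genes of that compartment showed no call with all libraries. The 11 features of mitochondrial mRNAs had a median log2 change of -0.38, with 3 lower without overlap and none higher (12.6% and 11.9% of all genes). The mt-Cytb feature, the apocytochrome b transcript, was at 9857, 12081 and 11452 at 10 weeks and at 9389, 6697 and 7331 at 30 weeks (log2 change -0.52, SE 0.17, limma adjusted p = 0.207), and mt-Nd1 at 7594, 9497 and 10174 and then at 7357, 7625 and 7163, where library 17 overlapped the younger range. In WT-TRAMP the median of these transcripts was -0.34. Nuclear genes for oxidative phosphorylation subunits had log2 changes above 0 in 69 of 75, with a median of 0.23. Of the 75, 12 were higher without overlap, near the 11.9% of all genes, and 1 was lower, against 12.6%. Cox6c, a subunit of cytochrome oxidase, was at 869, 611 and 853 and then at 919, 1443 and 1189 (log2 change 0.60, limma adjusted p = 0.237). The list of mitochondrial RNA processing, 16 genes with Elac2 included, had a median of 0.09. No member was higher without overlap and 1, Elac2, was lower. Trmt10c, a subunit of the enzyme that cuts the other end of the tRNA, was at 245, 168 and 229 and then at 243, 295 and 243.

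No gene of the remaining lists passed the test. The luminal list had a median of -0.21, the basal list 0.15, sterol and fatty acid synthesis -0.28, polyamine synthesis -0.05 and epithelial to mesenchymal transition 1.15 over 6 tested genes. Vim, the mesenchymal filament vimentin, was at 148, 268 and 332 and then at 691, 793 and 878 (log2 change 1.73, limma adjusted p = 0.0826), above the younger range in all 3 older libraries. Srebf1, a regulator of lipid synthesis, was at 2882, 2112 and 2522 and then at 1280.2, 1580.0 and 1560.0 (log2 change -0.76, limma adjusted p = 0.118). The 15 genes that the study itself named at 30 weeks are a list chosen on samples that include these and so no independent evidence. They had 5 members higher without overlap and 1 lower (11.9% and 12.6% of all genes), with a median of 1.31. Of the 15, 1 had a 10-week mean under 10 and passed the filter through the older libraries alone. Carry-over lists had medians of 1.81 for seminal vesicle (0.18 without library 16), 2.71 for adipose tissue (2 of 8 genes tested) and 1.05 for skeletal muscle. In WT-TRAMP these medians were 5.72, 4.45 and -1.89.

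**Figure D3:**
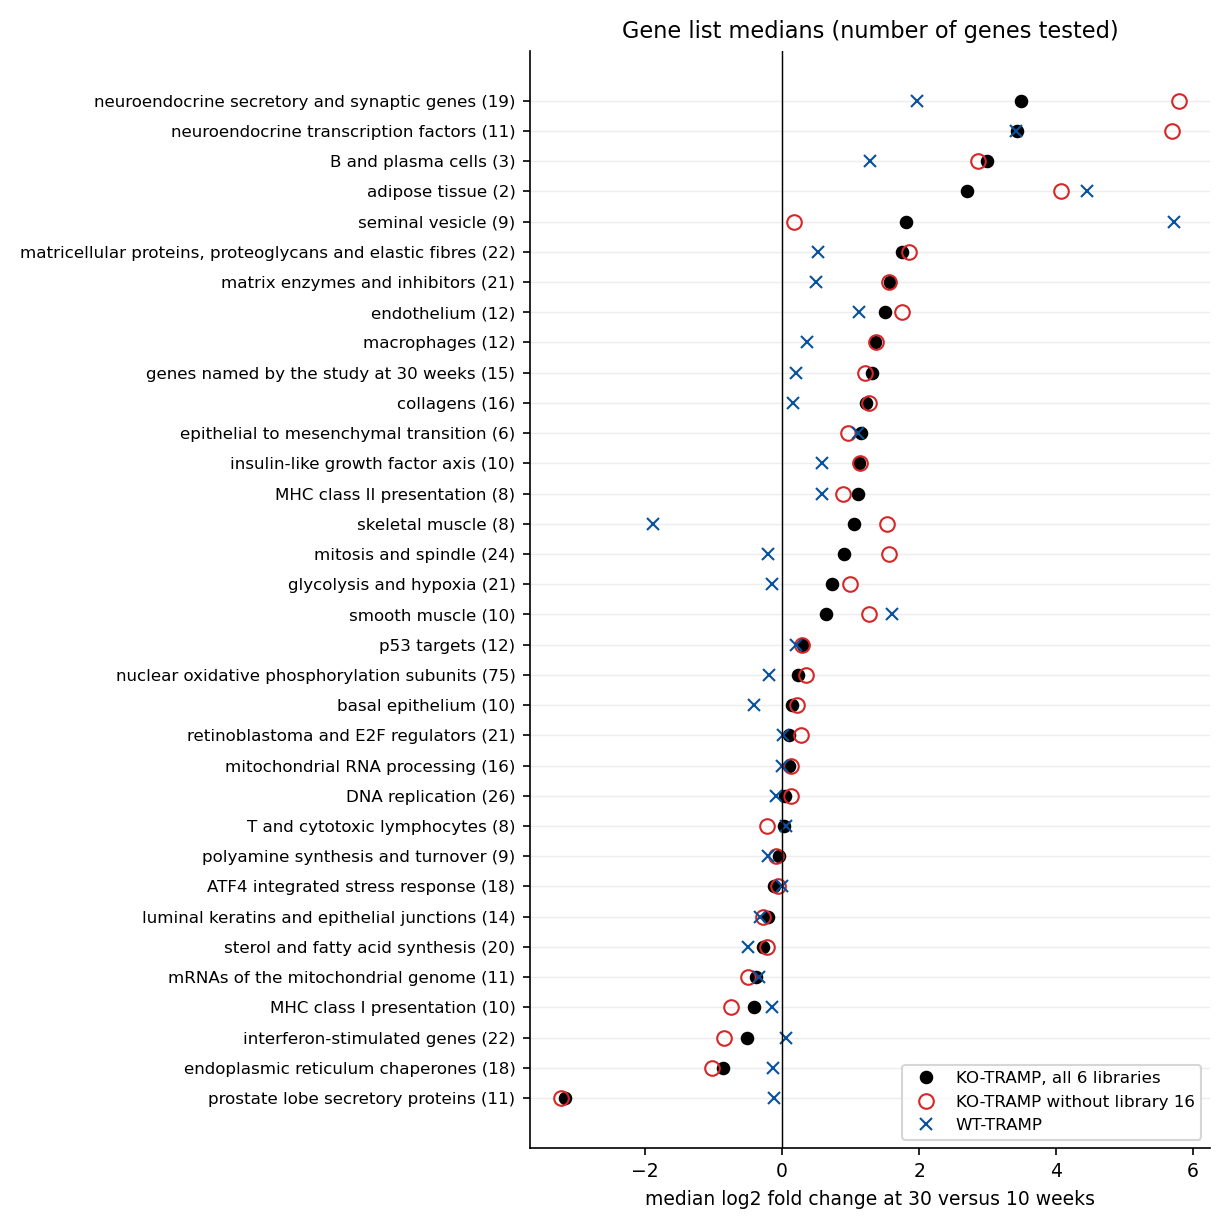
Median log2 fold change at 30 versus 10 weeks (x axis) of 34 gene lists, in KO-TRAMP with all 6 libraries (filled circles), in KO-TRAMP without library 16 (open circles) and in WT-TRAMP (crosses); the number of genes tested is in brackets. The matrix and macrophage lists keep their place without library 16 and lie to the right of WT-TRAMP, and the 2 neuroendocrine lists move from 3.43 and 3.48 to 5.69 and 5.79.

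To see how far these changes also occurred with the intact gene, the age effect in KO-TRAMP was compared with that in WT-TRAMP in 1 fit over 12 libraries. In WT-TRAMP, 180 of 16408 genes (1.1%) passed the test between the ages. Seminal vesicle carry-over was uneven between the WT-TRAMP libraries, as given above, and its part in the comparison of the lines was not tested. For the difference of the 2 age effects, limma called 0 of 16408 genes (0%), with a smallest adjusted p of 0.11, edgeR called 0 and DESeq2 called 392, while 2169 genes (13.2%) had an unadjusted p under 0.05, 1105 (6.73%) with a larger and 1064 (6.48%) with a smaller value in KO-TRAMP. Without library 16, limma called 1941. Of the 52 genes called in KO-TRAMP, 14 also passed the test in WT-TRAMP, 49 had a change of the same sign there, and 46 had the larger change in KO-TRAMP. The last count follows in part from choosing the genes by their KO-TRAMP values. The median rise of the 44 raised genes was 2.20 on the log2 scale in KO-TRAMP and 0.70 in WT-TRAMP. That gap, too, follows in part from choosing the genes by their KO-TRAMP values.

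**Figure D4:**
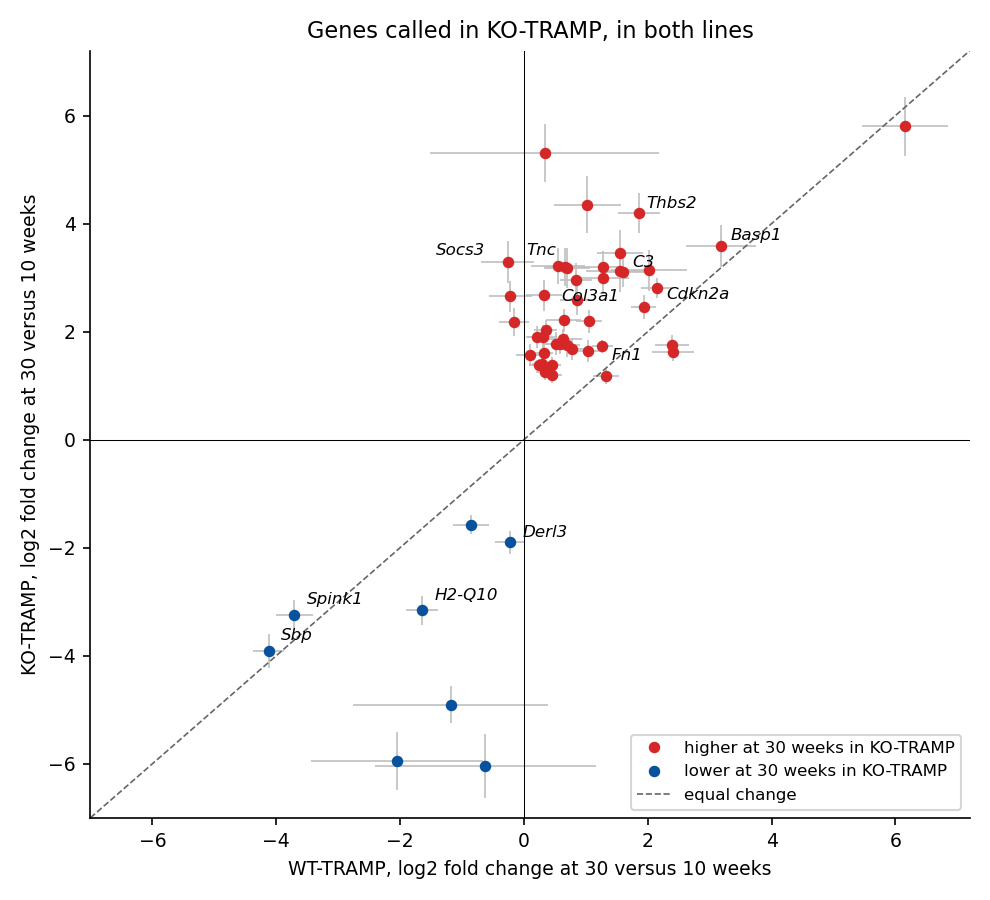
Log2 fold change at 30 versus 10 weeks in WT-TRAMP (x axis) and KO-TRAMP (y axis) of the 52 genes called in KO-TRAMP, 44 higher in red and 8 lower in blue, with lines of 1 standard error in both directions; the dashed line marks equal change. Sbp, Spink1, Fn1, Cdkn2a and Basp1 lie near the dashed line, whereas Tnc, Col3a1 and Socs3 lie well above it.

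Named genes close to equal in both lines included Sbp, Spink1, Cdkn2a and Fn1. Sbp and Spink1 were not typical of the secretory genes, whose 11 members had a median log2 change of -3.16 in KO-TRAMP and -0.12 in WT-TRAMP, with 5 at an unadjusted p under 0.05 for a smaller value in KO-TRAMP and none for a larger one (6.48% and 6.73% of all genes). Sbp was at 268944, 317478 and 234606 in WT-TRAMP at 10 weeks and at 15362, 15618 and 15908 at 30 weeks, and its 2 age effects differed by 0.22 on the log2 scale (SE 0.36). Cdkn2a was at 78.3, 55.0 and 33.3 and then at 215, 267 and 229 in WT-TRAMP, where it also rose (log2 change 2.15, limma adjusted p = 0.00634), and the effects differed by 0.67 (SE 0.37). The intervals are too wide to say that the lines were alike. Matrix genes stood further apart. Fbn1 was at 233, 253 and 253 and then at 382, 240.0 and 339.7 in WT-TRAMP, where library 11 overlapped the younger ones. Its age effects differed by 1.69 (SE 0.27, limma adjusted p = 0.11, unadjusted p = 5.4e-05). Fbln2, encoding the matrix protein fibulin 2 (chr6:91212455-91272540), was at 81.4, 149 and 94.9 and then at 563, 398 and 487 in KO-TRAMP, and at 82.9, 136 and 119.6 and then at 96.1, 98.5 and 101 in WT-TRAMP. The ages did not overlap in KO-TRAMP and overlapped in WT-TRAMP, and the age effects differed by 2.35 (SE 0.35, limma adjusted p = 0.11). Over the lists, 10 of 16 collagen, 11 of 22 matricellular and 10 of 21 matrix enzyme genes had an unadjusted p under 0.05 for a larger value in KO-TRAMP and none for a smaller one, against 6.73% and 6.48% of all genes. The same held for 7 of 12 macrophage, 12 of 21 glycolysis and 31 of 75 oxidative phosphorylation genes. For chaperones of the endoplasmic reticulum 12 of 18 had the smaller value in KO-TRAMP, and none of the neuroendocrine, mitosis or mitochondrial mRNA genes had an unadjusted p under 0.05 for the difference.

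Other genes with large differences between the age effects were enzymes. Gpx2, a glutathione peroxidase of epithelia (chr12:76792333-76795554), stood at 15.1, 23.2 and 25.8 and then at 78.5, 304 and 199 in KO-TRAMP, and at 45.5, 51.1 and 35.6 and then at 24.8, 19.2 and 12.0 in WT-TRAMP. The ages did not overlap in either line and lay in opposite order, for a difference of 4.20 on the log2 scale (SE 0.65, limma adjusted p = 0.11). Idh1, which makes cytosolic NADPH (chr1:65158616-65186500), was at 287, 252 and 295 and then at 728, 969 and 848 in KO-TRAMP, where it rose (log2 change 1.60, limma adjusted p = 0.0235). In WT-TRAMP it was at 289.7, 233 and 268 and then at 364, 298 and 329.9, and the effects differed by 1.28 (SE 0.20, limma adjusted p = 0.11).

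On the other side were 2 genes of fatty acid use. Lpl, the lipase that frees fatty acids from lipoproteins (chr8:68880491-68907448), was at 247, 296 and 258 and then at 192, 190.1 and 173 in KO-TRAMP, but at 103, 117 and 193 and then at 296, 491 and 381 in WT-TRAMP, where it rose (log2 change 1.52, limma adjusted p = 0.0207). Its age effects differed by -2.03 (SE 0.34, limma adjusted p = 0.136). Acsl1, which activates fatty acids (chr8:46471037-46536051), was at 1491, 1578 and 1741 and then at 1276, 1056 and 1123 in KO-TRAMP and at 1137, 1173 and 1342 and then at 1643, 1836 and 1863 in WT-TRAMP, a difference of -1.02 (SE 0.15, limma adjusted p = 0.11). For both genes the ages were apart in each line, in opposite order. The 8 adipose tissue markers summed to 21.9, 40.6 and 35.6 in WT-TRAMP at 10 weeks and to 482, 1398 and 953 at 30 weeks. In KO-TRAMP they summed to 13.1, 21.5 and 32.5 and then to 49.6, 509 and 341. What part carried-over fat had in the values of Lpl and Acsl1 was not tested. Hpgd, which breaks down prostaglandins (chr8:56294585-56321043), was at 220.1, 224 and 379.5 and then at 227, 316 and 276 in KO-TRAMP, with overlap, while in WT-TRAMP it rose from 74.7, 126 and 141 to 811, 395 and 561 (log2 change 2.35, limma adjusted p = 0.00903). The difference was -2.31 (SE 0.45, limma adjusted p = 0.185). Seminal vesicle transcripts took 4.35%, 0.000106% and 1.90% of the reads of those 30-week WT-TRAMP libraries. Hpgd was lowest, at 395, in the one with the smallest share, and still above the younger ones. What part this carry-over had in the values of Hpgd was not tested. Fanca, a gene of DNA cross-link repair, differed by -1.29 and Bcorl1, a corepressor gene, by -1.31, each with a limma adjusted p of 0.171. None of these differences passed the adjusted threshold.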

How the data were processed

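The authors trimmed and aligned paired reads to GRCm38 (STAR 2.7.3a, per the submitters' processing notes), estimated transcript abundance with Salmon, summed it to 55469 GENCODE genes and deposited counts divided by DESeq2 (1.26) size factors, here called a signal. Each of the 4 deposited tables holds one mutant line and WT-TRAMP at 1 age. 4 further tables hold the authors' own fold changes and s-values and were not used, nor were 6 columns of the other mutant line.

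Every deposited signal value was a whole multiple of the smallest step of its column within 0.05, so whole reads were recovered (10420074 to 14830104 a library). Reads of the 6 KO-TRAMP libraries were scaled jointly by the median of ratios, and genes with a mean of at least 10 were tested on log2(count + 1) with limma 3.58.1 (trend) in R 4.3.3, Benjamini-Hochberg threshold 0.05. The difference of the age effects came from 1 fit over 12 libraries, whose scaling gives the WT-TRAMP values and the summed counts of lists. Table columns name a group and a library, not a replicate number, and p-values measure the spread between samples only. The script was tested on simulated data. Alternatives were TMM or the deposited scaling, filters of 1, 50 or none, pseudocounts of 0.5 and 5, edgeR 4.0.16, DESeq2 1.42.0, limma-voom, array weights, and leaving out each library.

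The members and the 35 gene lists were chosen with earlier results of these data known. Some genes and 1 of the lists are not reported here. Named genes were Elac2, up to 10 per direction with the largest change among called genes whose mean reached 100, whose ages did not overlap and whose symbol was neither a clone name nor an immunoglobulin or T cell receptor segment (filled to 5 by p-value), 5 per direction with the smallest p-value for the difference, and, from each list, the first member and up to 3 more with the smallest p-value. The 2 ages come from separately made tables. WT-TRAMP libraries present in 2 tables of the same age differed by gene-specific factors (SD 0.0454 and 0.0532 on the log2 scale at 10 and 30 weeks). Among the 52 called genes their size had a median of 0.0423 and a highest value of 0.435. No library was in tables of both ages, so such factors between the ages could not be measured. The difference of age effects cancels factors between the ages. Coordinates are those of a GENCODE annotation on GRCm38.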

Additional observations from a re-analysis of the deposited data

How the results depend on the processing

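The 52 calls between the ages became 115 with the deposited scaling of each table, which moved the median log2 change of all genes to 0.15, 1718 with DESeq2, 0 with limma-voom (2769 at an unadjusted p under 0.05), 9775 with array weights, whose estimation did not converge, and 112 among genes that agree between tables. TMM moved the median from 0.02 to 0.05 and called 63. Leaving out 1 library gave 0 to 5451 calls, the lowest without library 7, 8, 9 or 18 and the highest without library 16. For the difference of age effects, the count of 0 became 1 with a filter of 1, without a filter and with a pseudocount of 5, 392 with DESeq2 and 5096 with array weights, and 0 to 1941 on leaving out 1 library. Elac2 passed the threshold only with array weights (-0.25). Among 2570 refitted values of 145 named genes, 2135 stayed on their side of the threshold with their sign, 289 passed it, 136 no longer did and 10 changed sign: Myh4 with DESeq2 (-1.45) and edgeR (-1.42), Tnnt3 with DESeq2 (-0.0920), edgeR (-0.0627) and on leaving out 1 library (-0.0765 to 2.81), Mylpf on leaving out 1 library (-0.0051 to 1.17), and Ndufa1 with DESeq2 (-0.0307), edgeR (-0.0050), array weights (-0.11) and on leaving out 1 library (-0.26 to 0.22). All 4 were uncalled. The cause was not tested. Of 245 list medians, 12 moved by more than the spread between libraries. No paired analysis was possible because the columns carry no replicate number and the ages are different mice. Genes with counts near 1 in a library are limited by depth.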

Other observations

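Some genes that passed the test have not been described. They were chosen after their values were seen. Gstp2, a glutathione transferase gene (chr19:4040285-4046023), stood at 3.02, 1.1 and 4.13 in libraries 7 to 9 and at 85.9, 213 and 144 in libraries 16 to 18 (limma adjusted p = 0.0235). In WT-TRAMP it was at 0.911, 3.93 and 276 and then at 10.8, 0.912 and 232, so that single WT-TRAMP libraries of both ages were as high as the older KO-TRAMP ones. Gstp2 shares 54.8% of its 31-base words with Gstp1. Ccl8, a chemokine of macrophages (chr11:82115185-82116799), was at 2.01, 1.1 and 1.03 and then at 57.3, 36.5 and 49.1 (limma adjusted p = 0.0388), and Clec10a, a lectin of macrophages and dendritic cells (chr11:70156197-70170834), at 6.03, 4.41 and 5.16 and then at 54.1, 47.0 and 58.8 (limma adjusted p = 0.0388). Every older library was above every younger one for all 3 genes. The gene model Gm12888 (chr4:121316316-121324917) rose in both lines, from 5.03, 6.62 and 1.03 to 197, 316 and 255 in KO-TRAMP and from 0.911, 5.24 and 9.20 to 163, 629.6 and 419 in WT-TRAMP (limma adjusted p = 0.0057). Gstp2, Ccl8, Clec10a and Gm12888 had 10-week means under 10 in KO-TRAMP and passed the filter through the older libraries alone.

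Of the 8 genes that fell, 3 were neighbouring gene models on chromosome 14. Gm16867 (chr14:69363504-69503362) was at 78.4, 62.9 and 116 at 10 weeks and at 1.06, 0 and 0 at 30 weeks, Gm38378 (chr14:69395504-69397771) at 117, 71.7 and 98.0 and then at 1.06, 0.746 and 0, and Gm27177 (chr14:69582164-69683286) at 205, 138 and 123 and then at 4.24, 3.73 and 4.27. All older libraries were near 0, so that the 3 models passed the filter through the younger libraries alone. In WT-TRAMP, Gm16867 was at 0, 129.7 and 174 at 10 weeks and at 1.08, 60.2 and 47.9 at 30 weeks, so that high and low libraries occurred at both ages. Gm16867 shares 88.0% of its 31-base words with Gm27177, and Gm38378 shares 100% of its words with another model, Gm37513, so that reads of the 3 models may be assigned to one another.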
